A study of Mus musculus with 6 samples.

Results

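Integrins are cell-surface adhesion receptors built from an α chain and a β chain, and neither chain is presented at the surface without a partner. The 10 genes described here are the α and β integrin subunits of hematopoietic cells named by symbol: Itga2b, Itga4, Itga5, Itgal, Itgam and Itgax for the α chains and Itgb1, Itgb2, Itgb3 and Itgb7 for the β chains. They were taken by name from a table of 24062 genes, and all 10 were found and passed the low-count filter. In leukocytes the β2 chain pairs with αL, αM and αX, receptors of ICAM proteins, complement fragments and fibrinogen. The chains α4 and α5 pair with β1 to bind VCAM-1 and fibronectin, α4 also pairs with β7 in lymphocytes, mast cells and early progenitors, and αIIb pairs with β3 as the fibrinogen receptor of platelets. Binding needs an inside-out signal, in which talin and kindlin attach to the β tail, so a transcript level does not report how adhesive a cell is.

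The cells were mouse lineage-negative hematopoietic cells that a retrovirus had transformed with the leukemic fusion gene MLL-AF9. There were 3 libraries from A20 +/+ cells (WT-labelled) and 3 from A20 f/f cells (KO-labelled). Both groups also carried Rosa Cre-ER, a tamoxifen-activated recombinase expressed from a widely active locus, and both were treated with 1 µM 4-hydroxytamoxifen for 48 h in medium with IL-6, IL-3 and SCF. The question was what A20 loss changes in these cells, and the comparison below is KO-labelled against WT-labelled. The labels do not say whether replicates were separate cultures, clones or mice, so the p-values cover only library-to-library spread, part or all of which may be technical.

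The libraries held 16113320 to 25415274 counted reads. The targeted gene, Tnfaip3 (A20), went against its label: it had 7.39, 8.67 and 8.24 CPM (reads scaled to library size by TMM) in the WT-labelled and 100.1, 74.1 and 79.1 CPM with the KO label, and these counts are over the whole gene, so they do not report a floxed part by itself. Directions below therefore refer to the labels. Xist at 564 to 2109 CPM with the WT label against 0 to 4.78 CPM with the KO label, with Ddx3y in the reverse pattern, showed that donor sex differed with the label and cannot be told apart from it. In both groups replicate 1 was unlike the other replicates, as in Gapdh (2645, 181 and 167 CPM WT-labelled; 2716, 254 and 248.5 CPM KO-labelled). The general leukocyte marker Ptprc was present in every library (214 to 598 CPM), as was the myeloid transcription factor Spi1 (149.9 to 265 CPM), whereas Cd3e, Hbb-bs and Alas2 had 0 reads in all 6.

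The integrin set changed its composition in the KO-labelled libraries. Itgb2 rose, Itga2b, Itga4, Itgb3 and Itgb7 fell, and Itga5, Itgal, Itgam, Itgax and Itgb1 did not pass the test (adjusted p below 0.05 in edgeR's quasi-likelihood fit of 12126 genes, Benjamini-Hochberg). Called genes were thus 5 of the 10 members, beside 27.3% of all tested genes. Lower calls were 4 of 10, beside 13.7%, and higher calls 1 of 10, beside 13.7%. The median log2 fold change of the members was −0.78, beside −0.04 over all tested genes. In bulk RNA, fewer cells of a type and less RNA per cell cannot be told apart. The calls of Itgb2, Itga2b, Itga4 and Itgb7 held in all 19 alternative analyses, and that of Itgb3 in 10 of 19.

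**Figure D1:**
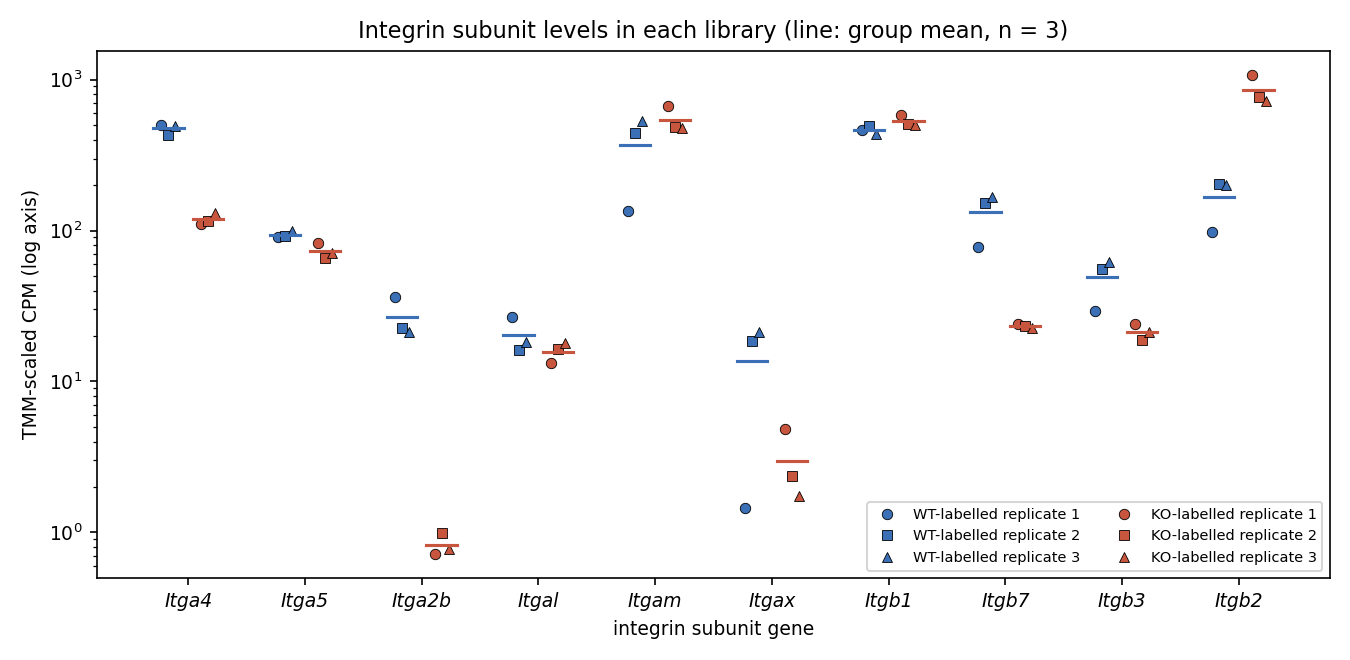
TMM-scaled CPM (log axis) of the 10 integrin subunit genes in each of the 6 libraries, with blue symbols for WT-labelled and red for KO-labelled libraries, a symbol shape for each replicate number and a line at each group mean. The KO-labelled points lie apart from the WT-labelled points for Itga4, Itga2b, Itgb7 and Itgb2, whereas WT-labelled replicate 1 lies far below replicates 2 and 3 for Itgam and Itgax.

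Itgb2, the β chain shared by the leukocyte integrins, was the member that rose. It had 97.5, 202 and 199 CPM with the WT label and 1077, 769 and 724 CPM with the KO label. All 3 KO-labelled libraries exceeded the highest WT-labelled one, and replicate 1 was the lowest of the WT-labelled and the highest of the KO-labelled libraries. The means were 166 ± 59.6 and 857 ± 193 CPM (SD, n = 3), a log2 fold change of 2.37 (SE 0.33; adjusted p = 0.0024 by edgeR). The rise was seen in each replicate number, with log2 ratios of 3.47, 1.93 and 1.86. In mm10, GENCODE places Itgb2 on chromosome 10, plus strand, from 77530252 to 77565708.

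The α partners of β2 did not follow it. Itgam, which encodes the αM chain known as CD11b on myeloid cells, had 134.5, 443.5 and 529 CPM with the WT label and 663, 485.5 and 481 CPM with the KO label. The groups overlapped, with WT-labelled replicate 1 well below the other 5 libraries. The log2 fold change was 0.56 with a 95% interval of −0.53 to 1.65 (SE 0.46; adjusted p = 0.42 by edgeR), so a rise of the size seen for Itgb2 lay outside the interval's upper end. The replicate 1 pair gave a log2 ratio of 2.30, and the pairs of replicates 2 and 3 gave 0.13 and −0.14. In replicates 2 and 3 alone the log2 fold change was −0.03 (adjusted p = 0.85).

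Itgal, which encodes the αL chain that pairs with β2 on lymphocytes and other leukocytes, was low in both groups. It had 26.7, 16.2 and 18.4 CPM with the WT label and 13.2, 16.3 and 17.9 CPM with the KO label. The groups overlapped, and the log2 fold change of −0.37 had a 95% interval of −0.92 to 0.17 (adjusted p = 0.28 by edgeR). Itgax, which encodes the αX chain known as CD11c on dendritic cells and macrophages, had 1.46, 18.5 and 21.3 CPM with the WT label and 4.87, 2.38 and 1.73 CPM with the KO label. WT-labelled replicate 1 was the lowest library of all, and WT-labelled replicates 2 and 3 were the highest. The log2 fold change was −2.19 (95% interval −4.29 to −0.09; adjusted p = 0.11 by edgeR). Without WT-labelled replicate 1 it was −2.71 and passed (adjusted p = 0.0019), and in replicates 2 and 3 alone it was −3.27 (5.19e-05), while the replicate 1 pair had the opposite sign (log2 ratio 1.74). DESeq2 also called Itgax over all libraries (adjusted p = 0.018). On simulated data 57 of the 213 DESeq2 calls were false, against 10 of 134 for edgeR. Those data had no outlying library and far fewer changed genes than were called here. The shares therefore cannot say whether the DESeq2 call of Itgax is false.

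The genes for αM and αX lie side by side on chromosome 7 of mm10, Itgam at 128062640 to 128118491 and Itgax at 128129547 to 128150657, both on the plus strand. Itgad, the next integrin gene there (128154376 to 128223816), stayed between 0.43 and 2.58 CPM, and its log2 fold change of −0.82 did not pass (adjusted p = 0.45 by edgeR) and was 0.20 without WT-labelled replicate 2. Itgal lies on the same chromosome at 127296260 to 127335138. A predicted gene model, Gm49368, overlaps 68.7% of the exon bases of Itgam on the same strand and is not in the table. Of the 31-base words of Itgax transcripts, 10.7% also occur in other genes, mostly Itgad, so a few reads of these genes could be assigned either way.

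Itga4 and Itgb7, which encode the chains of the α4β7 receptor, both fell. Itga4 had 499.7, 432.5 and 494.5 CPM with the WT label and 111, 116 and 130.4 CPM with the KO label. The groups were far apart, with little spread within either (476 ± 37.4 against 119 ± 9.89 CPM, SD, n = 3). This gave a log2 fold change of −1.99 (SE 0.14; adjusted p = 1.44e-04 by edgeR), and the log2 ratios of the 3 replicate numbers were −2.17, −1.89 and −1.92. Itga4 lies on chromosome 2 at 79255426 to 79333123 of mm10, plus strand. Cerkl, a gene on the opposite strand that shares 8.04% of the exon bases of Itga4, had only 4.84 to 10.6 CPM.

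Itgb7 had 77.2, 152 and 166 CPM with the WT label and 24.1, 23.3 and 22.5 CPM with the KO label. All KO-labelled libraries lay below the lowest WT-labelled library, which was replicate 1. The means were 132 ± 47.7 and 23.3 ± 0.80 CPM, a log2 fold change of −2.50 (SE 0.29; adjusted p = 0.0011 by edgeR). In mm10, Itgb7 runs from 102215995 to 102231944 on chromosome 15, minus strand.

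Itga2b showed the largest fall of the 10. This gene encodes αIIb, known as CD41, which marks megakaryocytes, platelets and some early progenitors. It had 36.1, 22.5 and 21.3 CPM with the WT label, from 864, 392 and 428 reads. In the KO-labelled libraries it had 0.72, 1.00 and 0.78 CPM, from 16, 23 and 13 reads, which is low but above the floor of 3 reads (0.13 to 0.18 CPM). This gave a log2 fold change of −4.99 (SE 0.31; adjusted p = 9.7e-05 by edgeR), and no library of either group came near the other. Itga2b lies on chromosome 11 at 102453297 to 102470122 of mm10, minus strand.

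Itgb3, whose β3 chain pairs with αIIb on platelets and with αV elsewhere, fell less. It had 29.3, 55.3 and 62.2 CPM with the WT label and 24.2, 18.8 and 21.1 CPM with the KO label. The groups did not overlap, but WT-labelled replicate 1 lay closer to the KO-labelled libraries than to replicates 2 and 3 of its own group. This gave a log2 fold change of −1.19 (SE 0.28; adjusted p = 0.020 by edgeR). The call was lost without any one library except WT-labelled replicate 1: the adjusted p was 0.072 and 0.067 without WT-labelled replicates 2 and 3, and 0.058, 0.076 and 0.069 without KO-labelled replicates 1, 2 and 3. Without WT-labelled replicate 1 the log2 fold change was −1.45 (adjusted p = 0.000295). Itgb3 lies on chromosome 11 at 104608000 to 104670476 of mm10, plus strand.

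Itgb1 and Itga5, which encode the chains of the α5β1 fibronectin receptor, showed the smallest log2 fold changes over all libraries. That of Itgal (−0.37) was close to that of Itga5. Itgb1 had 467, 490 and 435 CPM with the WT label and 582.5, 506 and 498 CPM with the KO label. Although the KO-labelled libraries all lay above, the log2 fold change of 0.19 (95% interval −0.15 to 0.53) did not pass (adjusted p = 0.38 by edgeR). Itga5 had 90.5, 92.6 and 98.6 CPM with the WT label and 83.1, 65.6 and 71.1 CPM with the KO label. The KO-labelled libraries all lay below, with a log2 fold change of −0.36 (95% interval −0.66 to −0.05; adjusted p = 0.081 by edgeR). The Itga5 difference passed without WT-labelled replicate 1 (−0.38, adjusted p = 0.045) and in replicates 2 and 3 alone (−0.50, 0.0027). Over all members, 7 of 10 had no overlap between the groups, beside 47.6% of tested genes. Itgb1 lies on chromosome 8 at 128685654 to 128733200 and Itga5 on chromosome 15 at 103344286 to 103366763 of mm10.

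**Figure D2:**
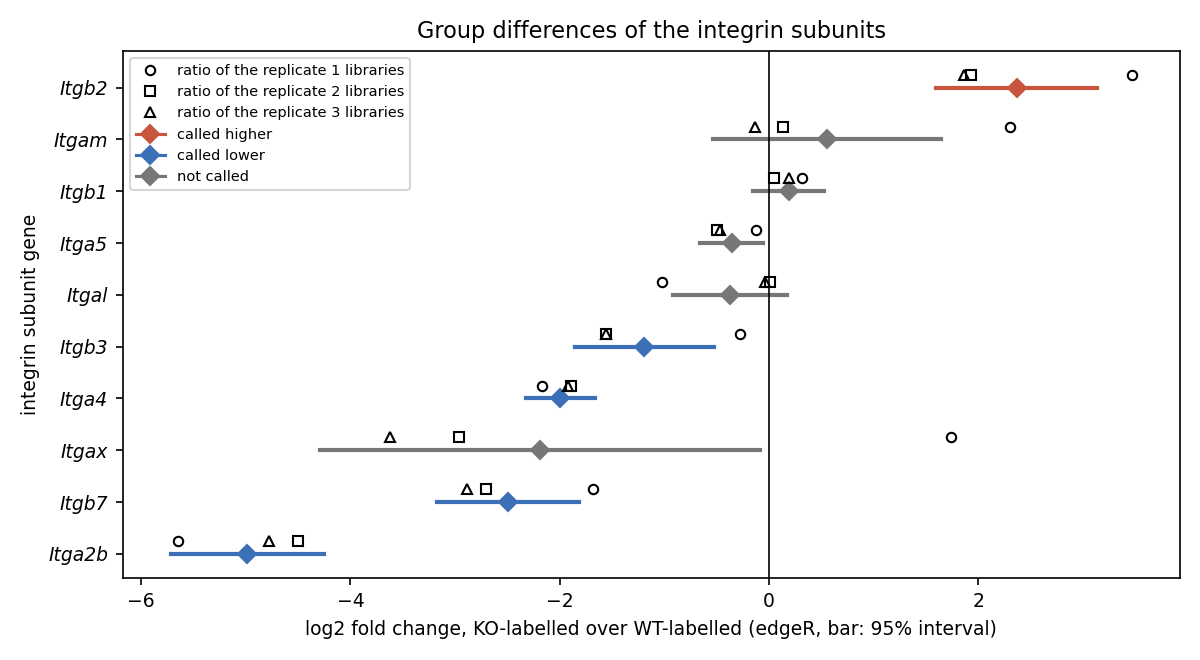
Log2 fold change (x axis, KO-labelled over WT-labelled) of each integrin subunit gene, where diamonds are edgeR estimates, bars are 95% intervals and open symbols are the log2 ratios of same-numbered libraries. The bars of Itgb2 (1.59 to 3.14) and Itga2b (−5.72 to −4.26) lie far from 0 on opposite sides, and the replicate 1 ratio of Itgax (1.74) lies on the other side of 0 from those of replicates 2 and 3.

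WT-labelled replicate 1 differed from replicates 2 and 3 of its group in most of the members. It was lower in Itgam, Itgax, Itgb2, Itgb3 and Itgb7 and higher in Itga2b and Itgal. The summed level of 12 monocyte and macrophage markers was 939 CPM in that library against 2761 and 1863 CPM in WT-labelled replicates 2 and 3, and 4320, 2427 and 2428 CPM with the KO label. Most of each sum came from Ly6c2 (836.5 to 2140 CPM) and Ccr2 (27.1 to 708.5 CPM), and neither gene was called. The part of such marker differences in the integrin values was not tested. With that library left out, 6 members were lower and 1 higher, beside 20.8% and 22.0% of tested genes. In replicates 2 and 3 alone the counts were also 6 and 1, beside 27.1% and 25.8%.

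Levels of different genes were compared per kilobase of exon, using the union of GENCODE exons. This union was 13.978 kb for Itga4, 4.933 kb for Itga5 and 2.77 kb for Itgb7. Ranks, shares and ratios between genes depend on that choice of length. On this scale Itgb1 was the most abundant member in the WT-labelled libraries (114 ± 6.75 CPM per kilobase, SD, n = 3). It was followed by Itgam (73.5 ± 41.3), Itgb2 (54.5 ± 19.5), Itgb7 (47.6 ± 17.2) and Itga4 (34.0 ± 2.68), whose ranges over the libraries overlapped from each to the next. Itga5 (19.0 ± 0.85) stood clear of its neighbours, and the ranges of Itgb3 (8.30 ± 2.94), Itga2b (4.88 ± 1.51), Itgal (3.11 ± 0.84) and Itgax (2.87 ± 2.24) again overlapped from each to the next.

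The order differed in the KO-labelled libraries, where Itgb2 led with 281 CPM per kilobase (237 to 353). Itgb1 (129.5; 122 to 143) and Itgam (108; 95.7 to 132) came next, and their ranges overlapped. A wide gap separated these 3 from Itga5 (14.9), Itga4 (8.54) and Itgb7 (8.42), the latter pair overlapping. Itgb3 (3.62), Itgal (2.40), Itgax (0.62) and Itga2b (0.15) formed the low end, each below the range of the one before.

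As a share of the 4 β members per kilobase, Itgb2 made up 17.8, 26.4 and 26.9% with the WT label and 69.4, 65.0 and 64.0% with the KO label. Itgb7 made up 15.6, 21.9 and 24.7% against 1.71, 2.17 and 2.19%, and Itgb1 63.8, 47.9 and 44.0% against 28.1, 32.0 and 32.9%. A share depends on all 4 genes, so the lower share of Itgb1 stood beside a level that did not pass the test. Among the 6 α members, Itga4 made up 38.9, 20.8 and 20.6% with the WT label and 4.98, 6.85 and 7.61% with the KO label, and Itgam 29.2, 59.5 and 61.3% against 82.5, 79.6 and 78.0%.

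**Figure D3:**
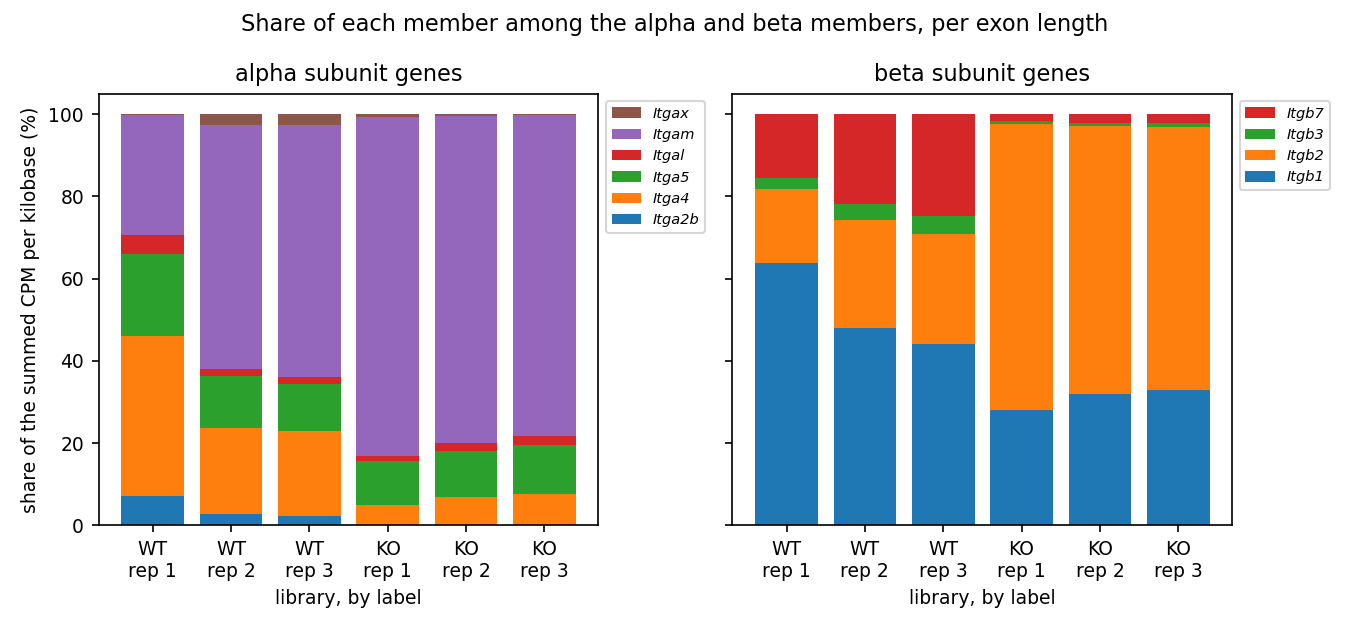
Stacked bars of the share (%) of each member in the summed CPM per kilobase of the 6 α members (left) and of the 4 β members (right), with 1 bar per library in the order of the labels. Itgb2 fills 64.0 to 69.4% of the β bars of the KO-labelled libraries and 17.8 to 26.9% of those of the WT-labelled libraries.

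Ratios between partner chains are descriptions of RNA per kilobase, not of surface receptors. The ratio of Itgam to Itgb2 was 0.84, 1.33 and 1.61 in the WT-labelled and 0.37, 0.38 and 0.40 in the KO-labelled libraries. Itgb2 thus stood below Itgam in WT-labelled replicates 2 and 3 and above it in the other 4 libraries. Itga4 to Itga5, which share β1, stood at 1.95, 1.65 and 1.77 against 0.47, 0.63 and 0.65. Itga4 to Itgb7 was 1.28, 0.56 and 0.59 against 0.92, 0.99 and 1.15, so these values overlapped. Itga2b to Itgb3 was 1.33, 0.44 and 0.37 against 0.032, 0.057 and 0.040, with no overlap.

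Of the 10 members, 7 had a start-site window in RefSeq (GRCm38.p6, the same assembly as mm10). The 250 bases before the RefSeq start are shown for 3 of them. Itga4 and Itgb7 were chosen because they fell together, and Itgam as the main α partner of the gene that rose. Bases in a GENCODE exon were left out, 9 of them for Itgb7. For Itga2b, which is not shown, 239 were left out and only 11 were searched. Capitals mark matches, on either strand, to GAGGAA (the core bound by PU.1, the product of Spi1), GATAA (the core bound by GATA factors) or a loose NF-κB-type motif (3 guanines, 5 bases of any kind and 2 cytosines). The windows are chr7:128062390-128062639 on the plus strand for Itgam, chr2:79255176-79255425 on the plus strand for Itga4 and chr15:102231945-102232185 (minus strand) for Itgb7.
Itgam: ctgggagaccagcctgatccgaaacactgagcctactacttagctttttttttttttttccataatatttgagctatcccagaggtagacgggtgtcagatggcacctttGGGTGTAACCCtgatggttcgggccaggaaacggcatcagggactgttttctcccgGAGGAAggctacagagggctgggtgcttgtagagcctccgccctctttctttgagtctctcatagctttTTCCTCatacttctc
Itga4: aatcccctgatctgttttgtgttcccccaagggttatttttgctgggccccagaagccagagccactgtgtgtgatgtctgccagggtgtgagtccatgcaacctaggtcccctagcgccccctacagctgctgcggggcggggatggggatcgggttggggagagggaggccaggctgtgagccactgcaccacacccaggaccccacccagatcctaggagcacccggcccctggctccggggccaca
Itgb7: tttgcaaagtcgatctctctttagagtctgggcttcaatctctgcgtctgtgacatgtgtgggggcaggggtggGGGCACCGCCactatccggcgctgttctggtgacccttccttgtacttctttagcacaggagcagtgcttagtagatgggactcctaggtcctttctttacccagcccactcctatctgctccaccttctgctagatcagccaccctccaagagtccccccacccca
The Itgam window held 2 matches to GAGGAA, whose first bases lie 84 and 15 bases before the start, and 1 palindrome-like stretch that matched the NF-κB-type motif on both strands. The Itga4 window held none of the 3 motifs, and the Itgb7 window held 1 match to the NF-κB-type motif, 176 bases before the start. GAGGAA was thus not particular to Itgam. Among the windows not shown, those of Itga5 and Itgb1 also held it, 127 and 9 bases before the start. The Itgax window held GATAA, 216 bases before the start. Over 32851 windows of 250 bases, 23.3% held GAGGAA, 22.6% GATAA and 45.8% the NF-κB-type motif at least once, so holding a match is not rare. The share of windows with 2 matches, or with a stretch that matches on both strands, was not counted. Spi1 itself had a log2 fold change of 0.34 that did not pass (adjusted p = 0.17 by edgeR).

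Of the other 17 integrin subunit genes, 8 passed the low-count filter, 1 rose and 1 fell, beside 13.7% of all tested genes each way. Itgav, the αV chain that pairs with β3 and β5, had 30.8, 30.2 and 37.7 CPM with the WT label and 49.3, 49.2 and 50.1 CPM with the KO label (log2 fold change 0.59, SE 0.13; adjusted p = 0.016 by edgeR). It rose while its partner Itgb3 fell. Itga6, the α6 chain of laminin receptors, had 379, 319 and 346 CPM against 221, 211 and 210.3 CPM (−0.70, SE 0.13; adjusted p = 0.0071). Neither was called once KO-labelled replicate 2 was dropped (adjusted p = 0.069 for Itgav and 0.055 for Itga6) or replicate 3 (0.068 and 0.052), nor was Itgav once WT-labelled replicate 2 was dropped (0.061).

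Itga1, a collagen receptor chain, had 50.0 to 76.5 CPM with the WT label and 42.1 to 47.03 CPM with the KO label and just missed the threshold (−0.58; adjusted p = 0.052 by edgeR); it passed without WT-labelled replicate 1 (adjusted p = 0.0012). DESeq2, which made more false calls than edgeR on simulated data without an outlying library, also called Itga1 (adjusted p = 0.033). Itgb5, which pairs with αV, had 163.5, 248 and 217 CPM against 238.5, 142 and 135 CPM, which overlapped (−0.28; adjusted p = 0.47 by edgeR), and it was lower in replicates 2 and 3 alone (−0.76; adjusted p = 0.000674). Itga10 had 2.72 ± 1.29 against 4.99 ± 0.65 CPM (adjusted p = 0.15). Itgae and Itgb4 had under 1 CPM in every library, with adjusted p of 0.19 and 0.62, and the median log2 fold change of the 8 tested genes was 0.14. The 9 genes that did not pass the filter were Itga2, Itga3, Itga7, Itga8, Itga9, Itga11, Itgb2l, Itgb6 and Itgb8, the last pair with 0 reads in all libraries.

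Among regulators that switch integrins on or off, 9 rose, 3 fell and 12 did not pass of 24 tested, with a median of 0.21. Of all tested genes 13.7% were called each way. Fermt3, the kindlin of blood cells that binds β tails, rose from 361 ± 8.52 to 559 ± 34.0 CPM (log2 fold change 0.63, SE 0.13). Rap1gap2, which switches off the small GTPase Rap1, rose from 8.64 to 34.4 CPM (2.00, SE 0.21), and Itgb1bp1, a β1 tail-binding protein, from 36.0 to 52.5 CPM. Rasgrp2, which activates Rap1 in platelets and neutrophils, fell from 134 to 77.4 CPM (−0.80, SE 0.11). Rapgef3, a cAMP-dependent Rap1 activator, fell by 1.76 and Sipa1l1, a Rap GTPase-activating protein, by 1.29 on the log2 scale. These 6 genes had adjusted p of 7.91e-04 to 0.015 by edgeR. Talin, the other β tail activator, was abundant and did not pass, with Tln1 at 779 to 946 CPM with the WT label and 631 to 770 CPM with the KO label (adjusted p = 0.15). Leaving out WT-labelled replicate 2 left 4 that rose, and leaving out KO-labelled replicates 1, 2 and 3 in turn left 3, 1 and 2. Without WT-labelled replicate 1, 7 fell, beside 20.8% of tested genes. Over all tested genes, too, calls were fewest without KO-labelled replicate 2 and most without WT-labelled replicate 1. This bears on the leave-out counts of every list. Dropping KO-labelled replicate 2 or 3 ended the call of Fermt3 (adjusted p = 0.069 and 0.054) and of Itgb1bp1 (0.073 and 0.072), and dropping KO-labelled replicate 1 did so for Sipa1l1 (0.061).

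Kinases and adaptors that act below integrins went both ways, with 8 higher, 9 lower and 14 not called of 31 tested. The list median was 0.28, and 13.7% of all tested genes were called each way. Lcp2, the adaptor SLP-76, rose from 63.8 ± 13.4 to 225 ± 7.35 CPM, and Vav3, an exchange factor for small GTPases, from 36.0 to 56.4 CPM. Fyn, a Src-family kinase, fell from 20.1 ± 6.39 to 4.07 ± 0.49 CPM. Lims1, a partner of the integrin-linked kinase, fell from 275 to 138 CPM and Zyx, zyxin of focal adhesions, from 105 to 52.3 CPM. The adjusted p of these 5 ranged from 5.67e-04 to 0.012 by edgeR. Leaving out KO-labelled replicate 2 left 3 that rose and 4 that fell, leaving out replicate 3 left 4 and 3, and leaving out replicate 1 left 5 that fell. Vav3 was not called in the fits that left out KO-labelled replicate 2 or 3 (adjusted p = 0.059 and 0.056).

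Ligands of the members included some of the widest differences, with 5 higher, 5 lower and 8 not called of 18 tested. The list median was −0.28, and 13.7% of all tested genes were called each way. Vcam1, the ligand of α4β1, had 1, 1 and 8 reads in the WT-labelled libraries and 1282, 822 and 581 in the KO-labelled libraries, so it was all but undetected in the group with higher Itga4. Icam1, a ligand of β2 integrins, rose from 19.6 ± 6.63 to 159 ± 56.8 CPM, and Thbs1, thrombospondin, from 41.9 ± 3.76 to 418 ± 34.6 CPM. In the other direction F11r (JAM-A, a ligand of αLβ2) fell from 31.8 to 0.41 CPM, Jam3 from 23.5 to 0.54 CPM and Thy1 from 460 ± 194 to 5.47 ± 0.71 CPM. The 6 genes had adjusted p of 3.04e-05 to 0.0011 by edgeR. Icam2, a constitutive β2 ligand, had a log2 fold change of −0.62 that did not pass (adjusted p = 0.073). No count of this list moved by more than 1.5 times when any 1 library was left out.

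**Figure D4:**
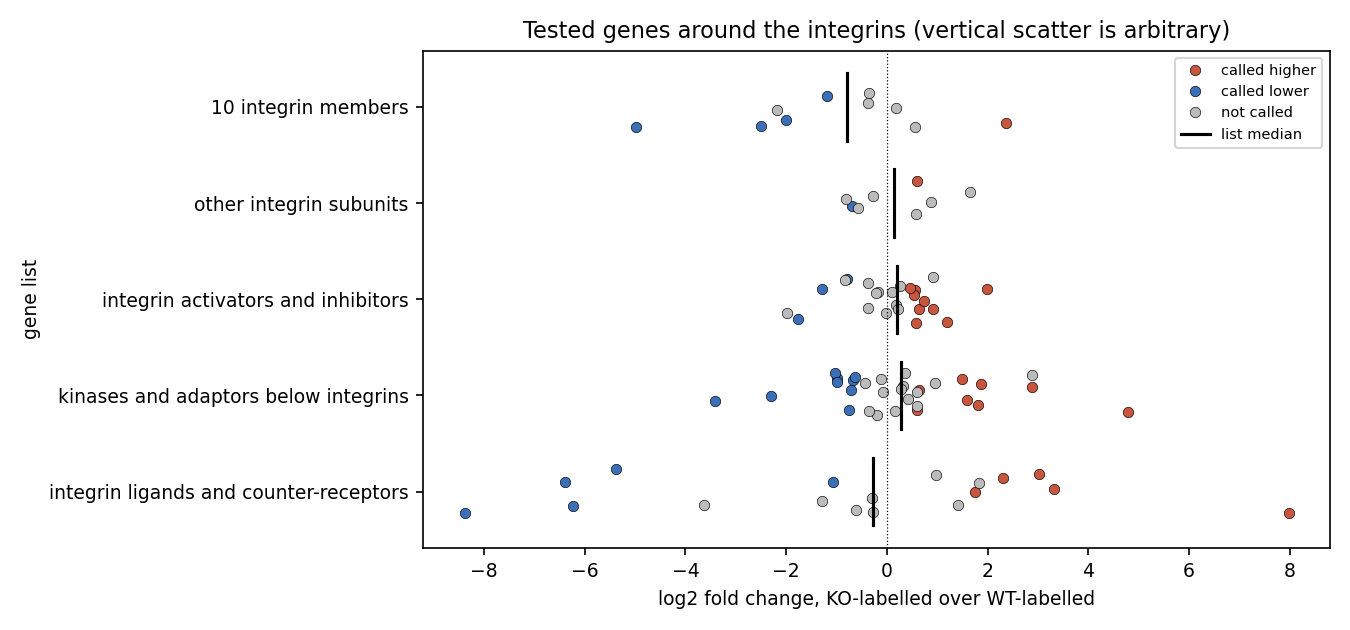
Log2 fold change (x axis, KO-labelled over WT-labelled) of the tested genes of the integrin members and of 4 lists of related genes (y axis), with red points called higher, blue called lower, grey not called and a line at each list median. The ligand list is the widest, from Vcam1 at 7.98 down to −8.39 for Cdh1, a ligand of αEβ7, and the other integrin subunits stay between −0.82 and 1.66.

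Markers of other cells that express these integrins were read beside the members. The marker counts below stand beside 13.7% of all tested genes called in each direction. Of 14 platelet and megakaryocyte genes 7 were tested, 1 rose and 3 fell, and their summed level was 294 to 355 CPM with the WT label and 248 to 299 CPM with the KO label, most of it Nfe2 (174 to 339 CPM), a factor that is not limited to that lineage. Beside the fall of Itga2b, Gp9, a chain of the platelet von Willebrand factor receptor, went from 3.04 to 3.77 CPM down to at most 0.09 CPM and Selp, P-selectin, from 6.55 to 20.3 CPM down to at most 0.35 CPM. The gene that rose, Tubb1, lost its call without WT-labelled replicate 3 or any 1 KO-labelled library. Vwf went the other way, with 2.80, 26.1 and 26.2 CPM with the WT label and 121.9, 38.5 and 35.2 CPM with the KO label. It did not pass over all libraries (log2 fold change 1.84, adjusted p = 0.15 by edgeR). In replicates 2 and 3 alone Vwf was called higher (0.48, adjusted p = 0.0064). Gp6 had 0 reads in all libraries, and Treml1 had 1 read. The part of a platelet-lineage component in the Itga2b and Itgb3 values was not tested.

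Of 16 mast cell and basophil genes 6 were tested, 0 rose and 3 fell, with a summed level of 466 to 514 CPM with the WT label and 156 to 165 CPM with the KO label. Most of that sum in every library was Kit (306.8 to 402.8 CPM with the WT label and 100.3 to 103.1 CPM with the KO label). Kit, the SCF receptor, fell from 353.5 to 102 CPM, Gata2, a transcription factor of progenitors and mast cells, from 79.6 to 4.93 CPM, and Mcpt8, a basophil protease, from 17.7 to 4.63 CPM (adjusted p of 2.28e-04 to 0.0057 by edgeR), beside the falls of Itga4 and Itgb7. Mitf went the other way, with 12.1, 32.7 and 28.9 CPM with the WT label and 48.2, 38.6 and 36.2 CPM with the KO label. It did not pass (log2 fold change 0.74, adjusted p = 0.16 by edgeR). Nor did Hdc (7.80 against 7.14 CPM) and Ms4a2 (1.27 against 0.84 CPM), with adjusted p of 0.78 and 0.34. The defining mast cell genes Fcer1a, Cma1, Tpsab1 and Tpsb2 had 0 reads in all 6 libraries, and Cpa3 had at most 0.70 CPM.

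Beside the rise of Itgb2, 2 of 9 tested monocyte and macrophage genes rose and 3 fell. When any 1 library except WT-labelled replicate 1 was left out, 1 rose. Without that replicate 6 fell, beside 20.8% of tested genes. Cd14 went from 9.89 to 37.4 CPM up to 274 to 518 CPM and Csf1r from 2.84 to 36.2 CPM up to 134 to 353 CPM (adjusted p = 0.0024 and 0.043 by edgeR). In the other direction Mrc1 fell from a mean of 16.1 to 0.24 CPM, Fcgr1 from 10.03 to 2.28 CPM and Cx3cr1 from 11.2 to 3.68 CPM (adjusted p of 0.0087 to 0.017 by edgeR). Ly6c2 (837 to 1721 against 1585 to 2140 CPM), Ccr2 (27.1 to 709 against 183 to 693 CPM) and Emr1 (9.39 to 77.9 against 187 to 529 CPM) did not pass. Emr1 passed as higher without WT-labelled replicate 1 (adjusted p = 0.031), and in replicates 2 and 3 alone Emr1 was called higher (log2 fold change 1.31; adjusted p = 3.24e-05) and Ccr2 lower (−1.67; 0.000386). Among 8 tested neutrophil genes 1 rose and 3 fell: Padi4 fell from 163 to 1.31 CPM, Mmp8 from 298 to 8.28 CPM and Lcn2 from 22.9 to 8.56 CPM, while Ngp rose from 0.06 to 3.52 CPM (log2 fold change 5.97; adjusted p = 0.0032 by edgeR). Csf3r was not called over all libraries and was lower in replicates 2 and 3 alone (−0.71; adjusted p = 0.0018). Dropping KO-labelled replicate 2 or 3 ended the call of Mmp8 (adjusted p = 0.067 and 0.062), and dropping any 1 library ended that of Lcn2 except WT-labelled replicate 1 (0.076 to 0.14). The summed level of that list was 274 to 711 CPM with the WT label and 62.3 to 118 CPM with the KO label. Of the dendritic cell markers, beside Itgax, Flt3 fell from 21.2 to 0.84 CPM and H2-Ab1 rose from 1.41 to 10.3 CPM, Ccr7 stayed under 1 CPM, and Siglech and Cd209a had 0 reads. The part of these cell types in the integrin values was not tested.

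Lymphoid, erythroid and stromal genes were near the limit of detection with few exceptions. The summed level of the T, NK and B cell list was 1.08 to 5.36 CPM, with Cd79b lower, Cd4 higher and Klrb1c and Cd79a at no more than 1.09 CPM, and that of the erythroid list 0.94 to 1.90 CPM, with Epor lower and Klf1 not called. The calls of Cd4, Cd79b and Epor were each lost without 1 of several libraries (adjusted p of 0.063 to 0.17). Pecam1, an adhesion molecule of endothelium that progenitors and platelets also carry, fell from 294 to 74.5 CPM, while the endothelial genes Cdh5, Kdr and Tek had at most 0.14 CPM. Pdgfrb rose from 0.39 to 3.48 CPM, Lepr did not pass, and Cxcl12 had at most 0.54 CPM. Among genes of hematopoietic progenitors and of the MLL-AF9 program, Cd34 fell from 613 to 1.63 CPM, Mpo from 142.5 to 299 CPM down to at most 0.56 CPM, Spn from 580 to 237 CPM and Runx1 from 102 to 38.1 CPM, while Hoxa9 rose from 143 to 253 CPM and Hoxa10 from a highest value of 134 to a lowest of 308 CPM. Meis1, which MLL-AF9 sustains, had 91.4 to 106 CPM against 102 to 110 CPM (adjusted p = 0.74 by edgeR). Of the 12 genes 2 rose and 5 fell; 3 fell once replicate 3 of the WT-labelled, or replicate 1 or 3 of the KO-labelled group, was dropped. Runx1 was not called once replicate 2 or 3 of the WT-labelled or replicate 1 or 3 of the KO-labelled group was dropped (adjusted p of 0.051 to 0.064).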

How the data were processed

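RNA was sequenced from 6 libraries made with a stranded mRNA kit, per the labels' protocols. The deposited values are whole read counts per gene; FastQC 0.11.7, HISAT2 2.0.5, featureCounts 1.5.2 and the build mm10 are named in the submitters' processing notes, and for the annotation and strandedness the entry is "not given in the sources used here". From these counts, TMM-scaled CPM and edgeR 4.0.16 quasi-likelihood tests (R 4.3.3, robust, filterByExpr, group as the only term) were computed over 12126 genes, with Benjamini-Hochberg adjustment and a threshold of 0.05. The design allows no exact permutation p below 0.1. The script was tested on simulated data. There edgeR recovered 34 of the 2-fold changes and 90 of as many 4-fold changes, and missed the rest. Far fewer genes were changed there than were called here, so these are not recovery rates of this comparison. A gene that did not pass may still differ. A floor of 3 reads was 0.125 to 0.179 CPM and covers counting error only. Alternatives used DESeq2 1.42.0, limma 3.58.1, other scalings and filters, a replicate block, summed replicates and leaving out each library. The members and gene lists were chosen with earlier results of these data known. Named genes were the members, the tested other subunits, up to 6 called genes of each pathway list by p, up to 4 genes of each marker list by mean CPM with defining markers at 0, and the 3 genes most like the members that rose and fell most. Tln1, Icam2, Cdh1, Tubb1, Cpa3, Hdc, Ms4a2, Csf1r, Mrc1, Fcgr1, Cx3cr1, Ngp, Meis1, Ptprc, Spi1 and undetected markers beyond that rule were named after their values were seen. Of the list symbols, Trac had no match and Adgre1 was matched as Emr1. Some genes that the naming rule covers are not reported here.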

Additional observations from a re-analysis of the deposited data

How the results depend on the processing

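Over 19 alternatives, 175 of the 190 member values kept their direction and side of the threshold, 9 lost the call (Itgb3 throughout), 5 gained it (Itga5 and Itgax) and 1 reversed. The members called lower numbered 3 to 6 and those called higher 1 throughout. Over all tested genes, the deviations of same-numbered libraries from their group means had r = −0.006, −0.055 and 0.052, so the numbers were not taken as pairs, although single genes such as Gapdh were high in replicate 1 of both groups; with a replicate block, 989 genes were higher and 1034 lower, against 1660 and 1656 without, and Itgb3 had an adjusted p of 0.074 (edgeR). Replicates 2 and 3 alone gave 3149 and 3309 genes, summing KO-labelled replicates 2 and 3 gave 982 and 945, summing them in each group gave 543 and 518, and an adjusted p below 0.01 left 821 and 873. Leaving out 1 library gave 939 to 2712 higher and 916 to 2568 lower, the most without WT-labelled replicate 1 and the fewest without KO-labelled replicate 2. Among log2 fold changes that reversed, none of which passed in the main analysis, Itgam was −0.026 in replicates 2 and 3 alone and Itgad ranged from −1.20 to 0.20 when 1 library was left out. Csf3r was −0.0003 with upper-quartile scaling, −0.035 with library totals, −0.71 in replicates 2 and 3 alone (adjusted p = 0.0018) and −0.38 to 0.26 leaving out 1 library. Ccr2 was 0.40 with limma-voom, 0.11 with the KO-labelled pair summed, 0.53 with both pairs summed, −1.67 in replicates 2 and 3 alone (adjusted p = 0.000386) and −1.09 to 0.43 leaving out 1 library. Lepr was 0.45 and 0.21 with those sums and −3.91 to 0.76 leaving out 1 library. The cause was not tested. Of 494 list counts, 384 stayed within 1.5 times and 110 moved further. Depth limits Itga2b in the KO-labelled libraries, where it rests on 13 to 23 reads.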

Other observations

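The tested genes whose log2 CPM followed Itgb2 most closely over the 6 libraries were Zfp709, Rit1 and Mcl1, the last an anti-apoptotic BCL2-family gene, each with a Pearson r of 0.999. Those closest to Itga2b were Fnbp1l, Fam117a and Ccdc117, also at r = 0.999. Group means of Mcl1 were 298 CPM (WT label) and 636 CPM (KO label), and those of Fnbp1l 53.9 and 15.4 CPM. These correlations are descriptions over 6 libraries that share a group difference and a replicate 1 that stands apart.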
